A study of Mus musculus with 24 samples.

Results

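Ly6Clo cells sorted from the peripheral blood (PB) of imiquimod (IMQ)-treated N2ΔMy mice were compared with those of IMQ-treated wt littermates by RNA-sequencing. The comparison takes 8 of the 24 libraries of the series, 4 of each genotype, chosen by genotype, subset and treatment as labelled, and 11230 of the 53715 genes listed, those whose normalized count reached 50 in 1 or more of the 24. N2ΔMy mice carry Cre recombinase in the *Lyz2* locus (*Lyz2*Cre) and a floxed *Notch2* on both alleles (*Notch2*lox/lox), on a C57BL/6 background, and were 8 to 10 weeks old. Cells of both genotypes were sorted as lineage-, CD11b+, GFP+, CD115+, Ly6Clo/- and MHC-II-, so that the *Cx3cr1*GFP/+ reporter was present in wt mice as well, and whether wt mice also carried *Lyz2*Cre is not given in the sources used here. Where they did not, the Cre allele and the loss of *Notch2* cannot be told apart. Aldara, a cream with 5% IMQ, was put on depilated skin at 50 mg per day for 4 to 5 days, and the sort took place on day 5. The other 16 libraries are Ly6Chi cells of both genotypes after IMQ or after Sham treatment with Vaseline. The series holds no Ly6Clo library after Sham treatment, so that the genotype difference of Ly6Clo cells without IMQ could not be compared.

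Ly6Chi cells are the classical monocytes of mouse blood, which enter inflamed tissue through the chemokine receptor CCR2 and can become macrophages there. Ly6Clo cells are the patrolling monocytes, which crawl along the endothelium, depend on the nuclear receptor NR4A1 and arise from Ly6Chi cells by conversion. Notch receptors are cleaved after they bind a ligand on a neighbouring cell, and the released intracellular domain joins the DNA-binding protein RBPJ and the Mastermind-like coactivators to switch on targets such as *Hes1*. Imiquimod is an agonist of TLR7, an endosomal receptor for single-stranded RNA. The comparison asks what the loss of *Notch2* in myeloid cells changes in the cells that fall into the Ly6Clo gate during this stimulation.

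Values are normalized counts, rounded to whole numbers in the deposited table, and inferred reads on genes lay between 10361145 and 17016566 in the 8 Ly6Clo libraries. In each pair of libraries with the same number, the N2ΔMy library was the deeper one. Replicates 1 and 2 belong to a first and replicates 3 and 4 to a second library series. Of the genes tested with limma on log2(value + 1), 350 (3.12%) were higher and 187 (1.67%) lower in N2ΔMy than in wt Ly6Clo cells, 537 (4.78%) in all. Such genes are referred to as called, which means that the adjusted p (Benjamini-Hochberg) did not exceed 0.05 and that the log2 fold change was 0.6 or more in size. The median log2 fold change was 1.25 among the genes called higher, -0.87 among those called lower and 0.00 over all genes tested. With the replicate number as a block, 552 (4.92%) were higher and 387 (3.45%) lower, together 939 (8.36%). Without wt replicate 1, the genes called lower fell to 102. Each of the 537 genes kept its direction within either library series, which is no independent check, since these libraries made the calls. Each library was made from a bulk of sorted cells, so that fewer cells of a kind and less RNA per cell cannot be told apart. The labels number the libraries but do not say that they come from separate mice, and p-values therefore measure the spread between these samples. Values of 4 libraries are given in the order of replicates 1 to 4, those of N2ΔMy first and, after "against", those of wt.

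**Figure D1:**
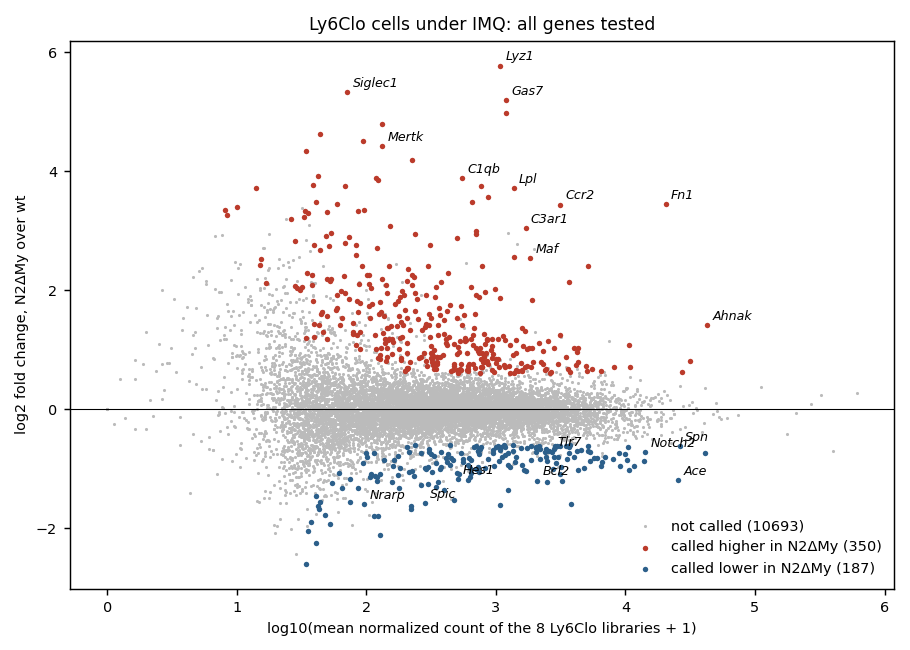
Log2 fold change of N2ΔMy over wt Ly6Clo cells under IMQ for the 11230 genes tested, against the log10 of their mean normalized count over the 8 libraries. Red points are the 350 genes called higher and blue points the 187 called lower; the rises reach 5.77 (*Lyz1*), and the falls of named genes reach -2.12 (RP23-395G18.1).

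*Notch2* (ENSMUSG00000027878.11, chromosome 3 of GRCm38, 98013527 to 98150361) was measured in every library. It was at 10987, 9368, 11137 and 11518 normalized counts in N2ΔMy replicates 1 to 4 and at 20005, 16624, 16037 and 18399 in wt replicates 1 to 4, without overlap (limma log2 fold change -0.72 with an SE of 0.11, adjusted p = 0.00306). All 4 N2ΔMy libraries thus kept *Notch2* RNA, at a mean of 10752 against 17766 in wt. Which exons are floxed is not given in the sources used here, and reads outside the deleted part are still counted, so that the RNA level does not measure the share of cells with a deletion. In Ly6Chi cells under IMQ, *Notch2* was at 7240 to 8311 in N2ΔMy and 12656 to 14982 in wt libraries, where its log2 fold change was -0.87 (limma adjusted p = 0.0194), and the difference between the subsets was 0.14, limma adjusted p = 0.999.

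The labels of the sort were then checked on the RNA. *Csf1r*, which encodes the sort antigen CD115, was at 19639 to 30196 in N2ΔMy and 24245 to 35788 in wt libraries and was not called (log2 fold change -0.34, limma adjusted p = 0.284). *Itgam*, which encodes CD11b, was at 5437 to 9014 against 4976 to 6414 (limma adjusted p = 0.563), and 71.7% of the 75-base windows of its transcript also occur in the annotated gene Gm49368. *Ptprc*, the pan-leukocyte gene, was at 32285 to 36236 against 42448 to 47126 and did not pass (log2 fold change -0.39, limma adjusted p = 0.0511). *Cx3cr1*, of which 1 allele is replaced by GFP, was at 3978, 3682, 3801 and 3682 in N2ΔMy and 2378, 2379, 2608 and 3250 in wt libraries. Its groups did not overlap, but its log2 fold change of 0.52 (limma adjusted p = 0.0173) is under the minimum of 0.6, and it passed only without wt replicate 4. *Cd3e*, *Klrb1c*, *Ly6g*, *Ly6c1*, *Ncr1* and *Fcer1a* were listed at 0 in all 8 libraries, although *Klrb1c* and *Ly6c1* share 15% and 23.2% of the 75-base windows of their transcripts with other genes.

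Of 23 tested markers of other cell types 3 (13%) were called, against 4.78% of all genes tested. Summed over the T cell list, values were at 3 to 13 in N2ΔMy and 0 to 29 in wt libraries, and over the basophil and eosinophil list at 1 to 12 and 0 to 9. No tested member of the B cell, NK cell, platelet, erythroid, progenitor and DC lists was called with limma, and 2 of their 17 tested members had an unadjusted p under 0.05, as did 19.5% of all genes tested. With the replicate block 3 of them were called, against 8.36% of all genes. They were *Klrd1* of the NK cell list and 2 members of the DC list. Without wt replicate 3, *Klrd1* and *Flt3* of the DC list were called. Of 6 members each, 1 of the NK cell and 2 of the progenitor list were tested. The summed NK cell list was at 15, 10, 126 and 69 in N2ΔMy and 6, 0, 33 and 0 in wt libraries. The progenitor list was at 17, 25, 109 and 68 against 12, 4, 58 and 11, and the B cell list at 808 to 2018 against 863 to 2010. The summed platelet list lay at 56 to 174 in N2ΔMy and 115 to 282 in wt libraries. The erythroid list stood out in replicate 4 of both genotypes, with sums of 1547 in N2ΔMy and 1288 in wt. *Mmp9* and *Mmp8*, proteases of neutrophil granules, were called higher (log2 fold changes 3.76 and 1.42). Of the 5 tested neutrophil members 4 had a positive and 1 a negative log2 fold change, with a median of 1.07, and 7 were not tested. The summed neutrophil list, in which genes with high counts weigh most, was at 1990 to 3200 in N2ΔMy and 2974 to 4088 in wt libraries. The call of *Mmp9* was lost without wt replicate 1, N2ΔMy replicate 1 or N2ΔMy replicate 2 and that of *Mmp8* without any library but N2ΔMy replicate 3, with adjusted p-values of up to 0.0714 and 0.11. *Pecam1*, the only tested gene of the endothelial list and also made by Ly6Clo monocytes, fell from between 9118 and 13876 to between 6024 and 8805 (limma log2 fold change -0.76 with an SE of 0.16, adjusted p = 0.0184), a call lost without wt replicate 1, 2 or 4 or N2ΔMy replicate 3 (adjusted p up to 0.0642). *Cdh5*, which defines endothelium, was at 0 to 4 against 0 to 5, and *Tek* was listed at 0 in all 8 libraries.

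Of the 25 tested members of the Notch pathway list, 4 were called lower and 1 higher (20%, against 4.78% of all genes tested), and the median of the list was 0.00. *Hes1*, a transcriptional repressor and a direct Notch target, was at 252, 368, 296 and 324 in N2ΔMy and 592, 672, 744 and 788 in wt libraries, so that every N2ΔMy library lay below every wt library (limma log2 fold change -1.18 with an SE of 0.15, adjusted p = 0.00113). *Nrarp*, a Notch target whose product feeds back on the pathway, was at 37, 28, 52 and 80 against 151, 132, 128 and 151 (limma log2 fold change -1.60 with an SE of 0.31, adjusted p = 0.0118). The fall of *Nrarp* was larger in the first library series (log2 fold change -2.10) than in the second (-1.10). *Maml2*, a Mastermind-like coactivator, fell as well, from between 285 and 499 to between 156 and 235 (wt mean 2.02 times that of N2ΔMy, limma adjusted p = 0.0128). *Notch1*, the related receptor, moved the other way: it was at 1505, 1398, 953 and 849 in N2ΔMy and 696, 495, 337 and 591 in wt libraries (limma log2 fold change 1.16 with an SE of 0.24, adjusted p = 0.0184), with 2043 to 2894 in wt Ly6Chi cells. Its call was lost without wt replicate 2 or N2ΔMy replicate 1 or 2 (adjusted p up to 0.0572). The 20 other tested members, among them *Rbpj* (log2 fold change 0.44, limma adjusted p = 0.36; 21.1% of its windows of 75 bases also occur in other annotated genes), were not called, and 9 of the 34 members did not reach the value of 50 in any library.

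Genes of patrolling monocytes were lower in N2ΔMy Ly6Clo cells: of 24 tested members 14 were called lower and 0 higher (58.3%, against 4.78% of all genes), and the median log2 fold change was -0.82. *Ace*, the angiotensin-converting enzyme, was at 14664, 13531, 15648 and 18623 in N2ΔMy and 35656, 33443, 33455 and 39576 in wt libraries. The groups were far apart, with a mean 2.28 times higher in wt (limma log2 fold change -1.19 with an SE of 0.12, adjusted p = 3.3e-04). *Bcl2*, which opposes apoptosis, was at 1186, 1142, 1269 and 1465 against 2716, 2978, 2695 and 3247 (limma log2 fold change -1.20 with an SE of 0.11, adjusted p = 1.6e-04). *Itgb3*, the integrin β3 chain, was at 682, 647, 687 and 716 against 2124, 1798, 1432 and 1740 (limma log2 fold change -1.36 with an SE of 0.12, adjusted p = 1.6e-04). For these genes the lowest wt library was at least 1.8 times the highest N2ΔMy library.

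*Nr4a1*, the transcription factor on which Ly6Clo monocytes depend, was at 9659, 7536, 10007 and 12542 in N2ΔMy and 17542, 16752, 16330 and 20934 in wt libraries (limma log2 fold change -0.86 with an SE of 0.15, adjusted p = 0.00704). *Pou2f2*, another factor induced in conversion, was at 9901, 9481, 16831 and 16763 against 15113, 13641, 23424 and 22236 and was not called (log2 fold change -0.50, limma adjusted p = 0.286). Its values were higher in the second library series in both genotypes, and within each of the 4 pairs of the same number the N2ΔMy library was the lower one (adjusted p = 5.2e-04 with the block, at a change under the minimum of 0.6). *Cebpb*, at 3741, 15120, 2674 and 5302 against 4890, 14016, 7329 and 5774, was high in replicate 2 of both genotypes and was not called (limma adjusted p = 0.681). *Spn*, the gene for the surface marker CD43, fell from between 30575 and 33664 to between 19627 and 21774 (limma log2 fold change -0.63 with an SE of 0.09, adjusted p = 0.00322), and without wt replicate 4 its change of -0.60 stayed just under the minimum. *Itgal*, the LFA-1 α chain with which these monocytes hold on to endothelium, fell from between 46334 and 60471 to between 27247 and 36536 (log2 fold change -0.73, limma adjusted p = 0.00894). *Eno3* and *Cd274*, the latter encoding the checkpoint ligand PD-L1, fell by 0.88 and 0.94 on the log2 scale. *Itgax*, which encodes CD11c, was at 982, 1081, 1915 and 2008 against 2145, 2350, 1973 and 2969, with genotypes further apart in replicates 1 and 2 than in replicates 3 and 4. It was called with the replicate block only (limma adjusted p = 0.118 without and 0.00882 with the block).

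In N2ΔMy Ly6Chi cells under IMQ, the same genes were at 1915 to 4040 (*Ace*), 38 to 131 (*Bcl2*) and 1675 to 3868 (*Nr4a1*), below every Ly6Clo library of either genotype. Thus the N2ΔMy Ly6Clo libraries lay between Ly6Chi cells and wt Ly6Clo cells for these genes. The difference of the genotype effect between the subsets was called for 1 member, *Itgb3* (-1.20, limma adjusted p = 0.0119), which was at 208 to 337 in wt and 200 to 309 in N2ΔMy Ly6Chi cells.

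Genes of classical monocytes were higher: 9 of 22 tested members were called higher and 0 lower (40.9%, against 4.78% of all genes), with a median log2 fold change of 1.26. *Ccr2*, the receptor for CCL2, was at 6279, 6281, 5879 and 4393 in N2ΔMy and 482, 641, 991 and 241 in wt libraries. The mean was 9.7 times that of wt (limma log2 fold change 3.44 with an SE of 0.34, adjusted p = 3.2e-04), while wt Ly6Chi cells were at 12476 to 13680. *Vcan*, the proteoglycan versican, was at 1785, 1886, 743 and 1282 against 115, 69, 153 and 77 (limma log2 fold change 3.75 with an SE of 0.32, adjusted p = 1.6e-04), against 12389 to 18487 in wt Ly6Chi cells. *Fn1*, the gene for the matrix protein fibronectin, was among the called genes with the highest normalized counts, at 57919, 30795, 26927 and 33841 against 3957, 2158, 4325 and 3163 (limma log2 fold change 3.44 with an SE of 0.26, adjusted p = 7.1e-05), against 109248 to 137785 in wt Ly6Chi cells. *F13a1*, coagulation factor XIII A, rose too (log2 fold change 3.56; 4.41 in the first series and 2.71 in the second). All of these genes thus stayed well below the Ly6Chi level in N2ΔMy Ly6Clo cells.

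The marker that defines the sort stayed low. *Ly6c2* was at 51, 46, 382 and 58 in N2ΔMy and 19, 12, 92 and 38 in wt Ly6Clo libraries, against 2615 to 6233 in wt Ly6Chi cells, and was not called (log2 fold change 1.47, SE 0.75, limma adjusted p = 0.319, but 0.0076 with the block). Replicate 3 was the highest of both genotypes. Of its 75-base windows 21.9% also occur in *Ly6c1*. As a share of the wt Ly6Chi mean, the N2ΔMy Ly6Clo mean was 3.05% for *Ly6c2*, 7.28% for *F13a1*, 9.09% for *Vcan*, 29% for *Fn1* and 43% for *Ccr2*. Over all called members of the list it ranged from 2.55% for *Mmp8* to 81.6% for *Ccl9*, and without N2ΔMy replicate 3 that of *Ly6c2* was 1.17%. *Thbs1* and *Mmp8* were also called higher, but without 1 library their adjusted p-values reached 0.103 (lost without wt replicate 1, 2 or 3 or N2ΔMy replicate 1 or 2) and 0.11. *Lyz2*, whose locus carries Cre in N2ΔMy mice, was at 54580, 45309, 38976 and 43209 against 30985, 28980, 47456 and 36916 and was not called (log2 fold change 0.35, limma adjusted p = 0.3).

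**Figure D2:**
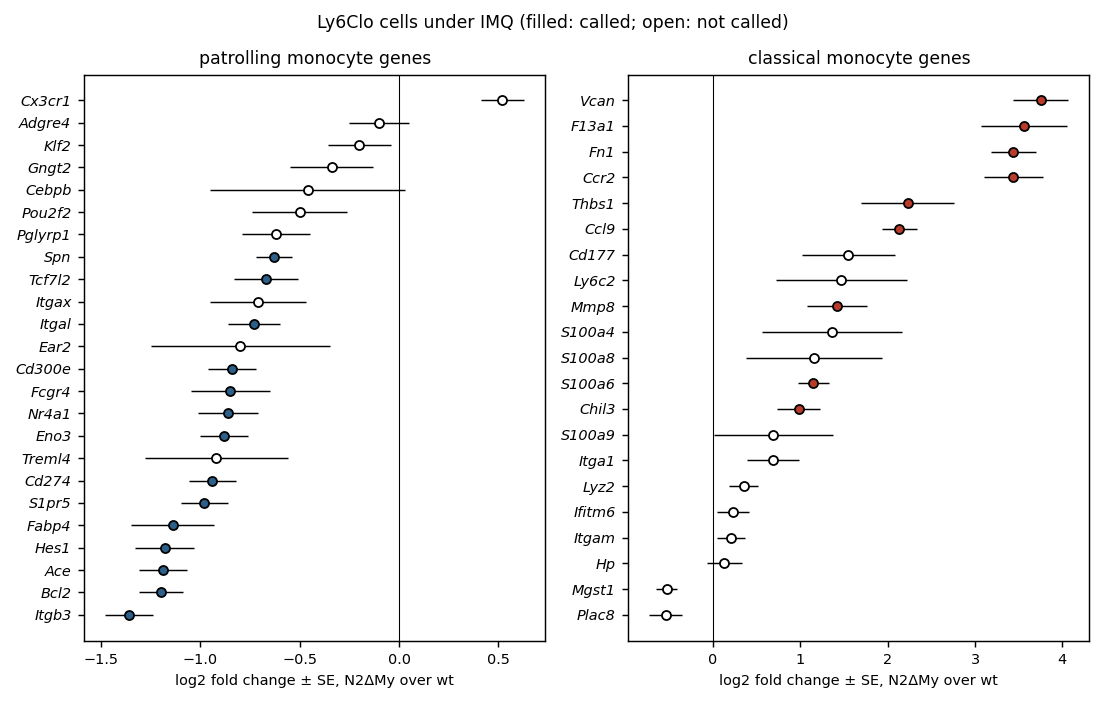
Log2 fold change of N2ΔMy over wt Ly6Clo cells with its SE (n = 4 libraries each) for tested members of the patrolling (left) and classical (right) monocyte lists. Filled points are called (14 lower on the left, 9 higher on the right) and open points are not; of the patrolling genes only *Cx3cr1* lies above 0.

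The largest log2 fold change of all named genes belonged to *Lyz1* (chromosome 10, 117287797 to 117292868 in GRCm38, ENSMUSG00000069515.6), which encodes the lysozyme known from Paneth cells and lies next to *Lyz2*, the macrophage lysozyme gene (117277331 to 117282321). It was at 2512, 1398, 2210 and 2354 in N2ΔMy and 31, 31, 40 and 48 in wt Ly6Clo libraries, a mean 56.5 times that of wt (limma log2 fold change 5.77 with an SE of 0.22, adjusted p = 2.9e-07; 5.87 and 5.67 within the series). *Lyz1* was also called in Ly6Chi cells under IMQ, at 659 to 1582 in N2ΔMy and 84 to 175 in wt libraries (log2 fold change 3.06, limma adjusted p = 0.0241). N2ΔMy Ly6Clo cells held more of it than wt Ly6Chi cells. The *Lyz2* locus carries Cre in N2ΔMy mice. Where wt mice did not carry Cre, an effect of that allele on its neighbour *Lyz1* cannot be told apart from the loss of *Notch2*. Because the genes are near-identical copies, their coding sequences (GENCODE annotation of GRCm38, chromosome 10, minus strand, 5′ to 3′) are shown here over their first 95 codons, with the bases that differ between them in capitals.
Lyz1: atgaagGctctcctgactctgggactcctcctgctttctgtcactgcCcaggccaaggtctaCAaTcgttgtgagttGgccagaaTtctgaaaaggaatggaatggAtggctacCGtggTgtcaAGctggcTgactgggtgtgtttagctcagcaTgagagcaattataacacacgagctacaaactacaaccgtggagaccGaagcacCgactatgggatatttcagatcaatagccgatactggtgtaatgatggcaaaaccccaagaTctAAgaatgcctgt
Lyz2: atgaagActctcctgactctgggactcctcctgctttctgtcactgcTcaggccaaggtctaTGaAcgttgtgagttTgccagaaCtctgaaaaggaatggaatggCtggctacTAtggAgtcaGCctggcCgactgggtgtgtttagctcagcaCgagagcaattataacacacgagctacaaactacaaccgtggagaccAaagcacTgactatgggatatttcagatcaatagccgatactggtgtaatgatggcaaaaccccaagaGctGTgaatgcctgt
These stretches hold 20 of the differences. Over all 447 coding bases the copies differ at 22, which makes them 95.1% identical, and the longest run without a difference is 118 bases. A read of 75 bases that falls in such a run cannot be assigned to either gene. This concerned 44 of the 373 windows of 75 bases in the coding sequence and 6.22% of those in the whole *Lyz1* transcript, so that most of its windows tell the copies apart. How the counting treated the shared reads was not tested.

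Of 15 tested complement genes 6 were called higher and 0 lower (40%, against 4.78% of all genes), or 8 and 1 with the block (8.36% of all genes), with a median of 0.70. The chains of C1q, the recognition molecule that starts the classical complement pathway and tags dying cells, are encoded side by side on chromosome 4 by *C1qa* (136895917 to 136898803), *C1qc* (136889804 to 136893065) and *C1qb* (136880129 to 136886187), and all of them rose. *C1qb* was at 971, 742, 1187 and 1193 in N2ΔMy and 37, 102, 64 and 84 in wt libraries (limma log2 fold change 3.88 with an SE of 0.29, adjusted p = 7.1e-05). *C1qc* was at 361, 338, 428 and 568 against 12, 38, 20 and 25 (limma log2 fold change 4.18 with an SE of 0.33, adjusted p = 7.7e-05). *C1qa* was at 305, 225, 203 and 266 against 26, 10, 0 and 21 (log2 fold change 4.78, limma adjusted p = 0.00812), with 1 wt library at 0. None of the chains was near these levels in Ly6Chi cells under IMQ, where *C1qb* was at 17 to 79 in N2ΔMy and 16 to 48 in wt. *C3ar1*, the receptor for the fragment C3a, was at 3628, 3742, 2132 and 2535 against 503, 487, 227 and 287 (limma log2 fold change 3.04 with an SE of 0.27, adjusted p = 1.8e-04), far above the 192 to 309 and 52 to 80 of N2ΔMy and wt Ly6Chi cells.

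Genes for the uptake of apoptotic cells and of modified lipoproteins were next compared, and 8 of 19 tested members were called higher and 1 lower (47.4%, against 4.78% of all genes), with a median of 0.45. *Mertk*, a receptor tyrosine kinase that binds dying cells through bridging proteins, was at 376, 245, 197 and 184 in N2ΔMy and 7, 18, 3 and 26 in wt libraries (limma log2 fold change 4.41 with an SE of 0.55, adjusted p = 0.00113). *Axl*, its relative, rose from between 31 and 44 to between 79 and 230 (log2 fold change 1.79, limma adjusted p = 0.0124), and *Tyro3* was listed at 0 in all 8 libraries. *Stab1*, a scavenger receptor of tissue macrophages, was at 187, 164, 176 and 168 against 21, 19, 21 and 8 (limma log2 fold change 3.34 with an SE of 0.32, adjusted p = 2.6e-04). The class A scavenger receptor *Msr1* rose, its log2 fold change being 2.15 (limma adjusted p = 5.7e-04). *Cd36*, the class B scavenger receptor, was at 3980, 2934, 1969 and 2757 against 698, 761, 424 and 1761, where wt replicate 4 was the highest of its group, and its call (limma adjusted p = 0.0141) was lost without wt replicate 1 (adjusted p = 0.0515). The member that fell was *Itgb3*, given above among the patrolling monocyte genes. *Cd5l*, a secreted scavenger-like protein of macrophages, was near 0 in Ly6Chi cells and rose to 149, 120, 197 and 229 from 0, 16, 5 and 30 (limma log2 fold change 4.50 with an SE of 0.87, adjusted p = 0.0123).

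**Figure D3:**
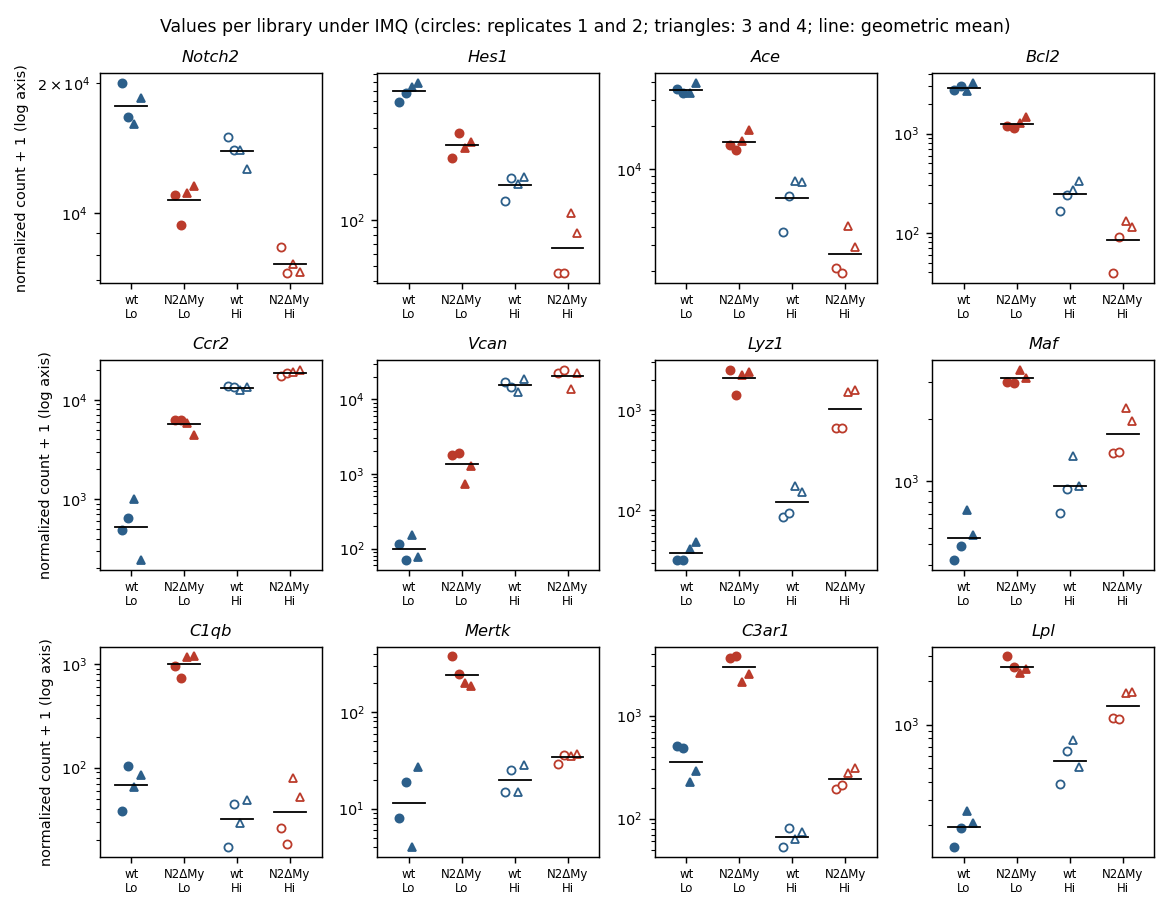
Normalized counts + 1 (log axis) of 12 genes in each library under IMQ, by genotype and subset (Lo, Ly6Clo; Hi, Ly6Chi; 4 libraries per group; the line is the geometric mean). N2ΔMy Ly6Clo libraries lie between wt Ly6Clo and Ly6Chi libraries for *Ace*, *Bcl2*, *Ccr2* and *Vcan* and above all other libraries for *Maf*, *C1qb*, *Mertk*, *C3ar1* and *Lpl*.

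Surface lectins and sialic acid receptors shared this direction, with 8 of 25 tested members called higher and 0 lower (32%, against 4.78% of all genes) and a median of 1.06; without wt replicate 1, 5 members were called, and with the replicate block (8.36% of all genes) 12 were higher and 1 lower. *Siglec1*, the sialoadhesin of macrophages, was at 112, 144, 163 and 114 in N2ΔMy and 3, 29, 0 and 0 in wt libraries, so that its log2 fold change of 5.32 (limma adjusted p = 0.00735) rests on wt values near 0. It was at 107 to 264 in wt Ly6Chi cells. *Mrc1*, the mannose receptor, was at 85, 47, 150 and 75 against 9, 14, 7 and 3 (limma log2 fold change 3.32 with an SE of 0.49, adjusted p = 0.00287). *Clec10a*, a galactose-type lectin, was at 118, 104, 240 and 152 against 6, 17, 35 and 9 (limma log2 fold change 3.33 with an SE of 0.50, adjusted p = 0.00298), and 6.42% of its transcript windows also occur in *Mgl2*. *Clec5a* (log2 fold change 2.53) lost its call without wt replicate 1 or 2 or N2ΔMy replicate 1 or 3 (adjusted p up to 0.0892). *Cd33* rose (log2 fold change 1.77, limma adjusted p = 0.00373), whereas *Cd22*, at 53, 95, 310 and 127 against 59, 49, 104 and 34, was called with the block only (limma adjusted p = 0.284 without and 0.0434 with it). Among the Fc receptors, *Fcgr1*, the high-affinity IgG receptor, rose from between 705 and 974 to between 1371 and 2515 (limma log2 fold change 1.16 with an SE of 0.18, adjusted p = 0.004). *Fcgr4*, an IgG receptor of Ly6Clo monocytes, was at 8009, 8731, 5784 and 6509 against 13858, 14302, 8473 and 16645 (limma log2 fold change -0.85 with an SE of 0.20, adjusted p = 0.0333), with overlapping groups and a call lost without any 1 of 6 libraries, all but wt replicate 3 and N2ΔMy replicate 2 (adjusted p up to 0.0994). *Fcgr2b* and *Fcgr3* were not called (log2 fold changes -0.02 and 0.22).

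Among 11 tested chemokine receptors 4 were called higher and 1 lower (45.5%, against 4.78% of all genes). *Ccr1* and *Ccr2* lie in 1 cluster on chromosome 9 (123962124 to 123968692 and 124101950 to 124113557), and both were called. *Ccr1* was at 77, 70, 55 and 46 against 7, 5, 15 and 1 in Ly6Clo libraries against 267 to 667 in wt Ly6Chi cells (log2 fold change 3.30, limma adjusted p = 0.00765). *Ccr3* of the same cluster stayed below the test minimum, at 5 to 16 against 11 to 30. *S1pr1*, the sphingosine phosphate receptor for exit from tissue, rose (log2 fold change 1.67, limma adjusted p = 0.0173; lost without wt replicate 1 or N2ΔMy replicate 1 or 2, adjusted p up to 0.058). The receptor called lower was *S1pr5*, at 1900, 1886, 2365 and 2426 against 3703, 4317, 3915 and 4975 (log2 fold change -0.98, limma adjusted p = 0.00127).

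Of 20 tested chemokine and cytokine genes 2 were called higher and 0 lower (10%, against 4.78% of all genes tested), or 3 and 1 with the block, where 8.36% of all genes were called. *Ccl9* was at 5965, 5354, 6855 and 5735 in N2ΔMy and 1023, 1010, 1720 and 1899 in wt libraries (limma log2 fold change 2.13 with an SE of 0.20, adjusted p = 2.6e-04). *Ccl6*, its neighbour on chromosome 11, was at 15835, 15015, 13396 and 12908 against 5296, 6159, 7269 and 8671 (limma log2 fold change 1.08 with an SE of 0.15, adjusted p = 0.00193). Both encode CCR1 ligands and were without overlap between the genotypes. *Ccl2*, at 13, 9, 14 and 21 against 0, 1, 1 and 11, and *Ccl3*, at 17, 24, 102 and 98 against 86, 79, 48 and 91, were low and were not called (limma adjusted p = 0.108 and 0.572), although *Ccl2* was called without wt replicate 4 and with the block (adjusted p = 0.0259). *Ccl3* was lower in N2ΔMy in the first series and higher in the second (log2 fold changes -1.98 and 0.59).

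**Figure D4:**
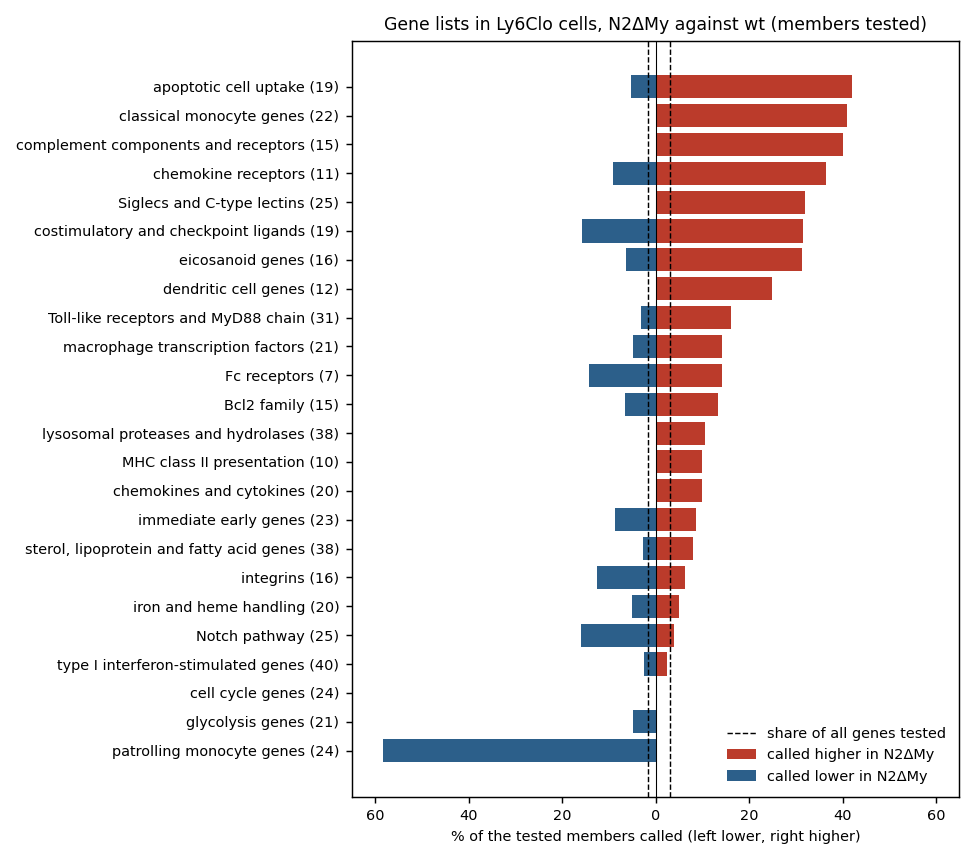
Share of the tested members of each of the 24 gene lists called higher (red, to the right) or lower (blue, to the left) in N2ΔMy Ly6Clo cells, with the number tested in parentheses. Dashed lines mark the share over all 11230 genes, 3.12% higher and 1.67% lower. Patrolling monocyte genes reach furthest to the left. The interferon-stimulated, glycolysis, cell cycle, Fc receptor, MHC class II and iron and heme lists hold at most 1 called member in either direction.

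Transcription factors moved in both directions. Of 21 tested factors of macrophages 3 were called higher and 1 lower (19%, against 4.78% of all genes), or 5 and 2 with the block. *Maf*, which encodes c-MAF, was at 2991, 2972, 3426 and 3137 in N2ΔMy and 419, 491, 727 and 555 in wt libraries (limma log2 fold change 2.54 with an SE of 0.15, adjusted p = 1.2e-05). It exceeded all Ly6Chi libraries under IMQ, which reached 2243. *Irf4* rose from between 143 and 408 to between 766 and 1399 (limma log2 fold change 2.05 with an SE of 0.30, adjusted p = 0.00245), and *Mitf*, a factor for lysosomal and osteoclast genes, from between 236 and 282 to between 499 and 627 (limma log2 fold change 1.12 with an SE of 0.13, adjusted p = 7.0e-04). *Spic*, known from red pulp macrophages, went the other way, at 129, 172, 103 and 142 against 643, 427, 259 and 372 (limma log2 fold change -1.58 with an SE of 0.26, adjusted p = 0.00552). *Nr1h3*, the gene for LXRα, was at 425, 430, 506 and 481 against 650, 725, 574 and 560 without overlap, but was not called (log2 fold change -0.44, limma adjusted p = 0.0603). Among the immediate early genes 2 were called higher and 2 lower of 23 tested (17.4%, against 4.78% of all genes), or 4 and 3 with the block (8.36% of all genes): *Myc* was at 30, 47, 137 and 91 against 7, 6, 19 and 9 (log2 fold change 2.68, limma adjusted p = 0.0133), *Atf3* rose by 1.36, and *Dusp2* and *Runx2* fell by 1.06 and 0.94 on the log2 scale. *Fos* was at 3634, 3058, 4429 and 4889 against 662, 875, 3483 and 4220, with wt replicates 1 and 2 far below the other libraries, and was called with the block only (limma adjusted p = 0.245 without and 0.0192 with it).

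Lipid genes included calls in both directions. *Lpl*, lipoprotein lipase, was at 2966, 2502, 2269 and 2416 in N2ΔMy and 140, 191, 248 and 207 in wt libraries, a mean 12.9 times that of wt (limma log2 fold change 3.71 with an SE of 0.17, adjusted p = 9.9e-07), and above Ly6Chi cells, which reached 1673 in N2ΔMy and 774 in wt mice. *Pltp*, the phospholipid transfer protein, rose from between 2300 and 3361 to between 4085 and 4937 (limma log2 fold change 0.67 with an SE of 0.12, adjusted p = 0.00765), and without wt replicate 1 its change of 0.59 fell under the minimum. *Fabp4*, a fatty acid carrier, went down, from between 668 and 1317 to between 337 and 485 (log2 fold change -1.14, limma adjusted p = 0.00971). *Apoe*, at 13409, 6583, 10288 and 9033 against 3275, 2215, 4806 and 9649, overlapped in wt replicate 4 and was not called (limma adjusted p = 0.12) except without that library and with the block (adjusted p = 0.00975), and the LXR targets *Abca1* and *Abcg1* were not called (log2 fold changes 0.55 and 0.05). In all, 3 of 38 tested sterol, lipoprotein and fatty acid genes were called higher (*Lpl*, *Pltp* and *Cd36*) and 1 lower. These are 10.5% of the list, against 4.78% of all genes tested. The total was 2 without wt replicate 1 and 7 with the block (8.36% of all genes).

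Eicosanoid genes, which make or sense leukotrienes, prostaglandins and thromboxane from arachidonic acid, were called higher in 5 and lower in 1 of 16 tested members (37.5%, against 4.78% of all genes). *Ltc4s*, the leukotriene C4 synthase, was at 179, 96, 398 and 239 in N2ΔMy and 7, 18, 24 and 9 in wt libraries (limma log2 fold change 3.86 with an SE of 0.49, adjusted p = 0.00121). *Ptgs1*, the gene for COX-1, was at 99, 115, 123 and 90 against 6, 8, 8 and 15 (limma log2 fold change 3.45 with an SE of 0.34, adjusted p = 2.9e-04), and *Tbxas1*, the thromboxane synthase, at 465, 381, 719 and 593 against 83, 65, 81 and 79 (limma log2 fold change 2.76 with an SE of 0.21, adjusted p = 7.1e-05). *Cysltr1*, a receptor for cysteinyl leukotrienes, rose from between 69 and 81 to between 235 and 353 (limma log2 fold change 1.98 with an SE of 0.18, adjusted p = 1.8e-04). The 5-lipoxygenase gene *Alox5* rose as well (log2 fold change 1.16, limma adjusted p = 0.0111; 1.75 and 0.57 within the series), while its partner *Alox5ap*, at 7599, 6424, 10664 and 11458 against 4566, 4570, 8216 and 9991, split by series and was not called (limma adjusted p = 0.422). In wt Ly6Chi cells *Ltc4s* was at 0 to 16 and *Tbxas1* at 541 to 944. The member that fell was *Hpgd*, which inactivates prostaglandins (log2 fold change -0.95, limma adjusted p = 0.041), a call lost without any 1 of 6 libraries, all but wt replicate 3 and N2ΔMy replicate 4 (adjusted p up to 0.114).

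Among innate sensing genes, 6 of 31 tested members of the Toll-like receptor and MyD88 list (19.4%, against 4.78% of all genes tested) were called, 5 higher and 1 lower, with a median of 0.06. *Tlr7*, the receptor for the agonist applied, was the member that fell, at 1736, 2029, 1949 and 2455 in N2ΔMy and 2703, 3302, 3496 and 3887 in wt libraries (limma log2 fold change -0.71 with an SE of 0.13, adjusted p = 0.0108). *Tlr2*, a receptor for bacterial lipoproteins, was at 592, 573, 344 and 341 against 202, 140, 108 and 151 (limma log2 fold change 1.60 with an SE of 0.25, adjusted p = 0.00348). *Cd14*, a coreceptor for endotoxin, rose by 1.42 and *Ly86* by 1.03 on the log2 scale, and *Tlr9*, the DNA receptor, by 0.88. The call of *Unc93b1*, whose product carries TLR7 and TLR9 to endosomes (log2 fold change 0.64), was lost without any library but N2ΔMy replicate 4 (adjusted p up to 0.111). Of 40 interferon-stimulated genes tested, 1 was called higher and 1 lower, or 4 and 1 with the block (8.36% of all genes), with a median of 0.05. The 5% called without the block is near the 4.78% of all genes tested. *Zbp1*, a sensor of Z-form nucleic acids, fell from between 2851 and 3670 to between 1524 and 2210 (limma log2 fold change -0.87 with an SE of 0.13, adjusted p = 0.00298), and *Gbp3* rose from between 240 and 652 to between 730 and 1037 (log2 fold change 1.25), a call lost without wt replicate 4 or N2ΔMy replicate 2 or 3 (adjusted p up to 0.0566). *Isg15*, *Ifit1* and *Ifit2* were not called (log2 fold changes 0.06, -0.01 and -0.21).

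MHC class II genes, which present antigen to helper T cells, varied strongly between libraries. MHC-II was a negative gate of the sort. *H2-Ab1* was at 779, 969, 8158 and 3913 in N2ΔMy and 312, 420, 1230 and 84 in wt libraries, and *Cd74*, the invariant chain, at 3446, 3749, 18001 and 9453 against 1322, 1648, 2679 and 467. Replicate 3 was the highest of both genotypes and wt replicate 4 the lowest of all. Of 10 tested members only *Cd74* was called (limma log2 fold change 2.41 with an SE of 0.59, adjusted p = 0.0373), which is 10% against 4.78% of all genes, and its call was lost without wt replicate 1, 2 or 4 or N2ΔMy replicate 3 or 4 (adjusted p up to 0.0972). *H2-Aa*, *H2-Ab1* and *H2-Eb1* had adjusted p-values of 0.0899, 0.103 and 0.0922, and were called without wt replicate 3, when 5 members were called. With the replicate block 8 members were called, all higher, against 4.92% of all genes called higher in that fit. The median log2 fold change of the list was 2.30, with 1.26 in the first series and 3.66 in the second.

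Markers of dendritic cells were set beside these values. The summed list of plasmacytoid and conventional DC markers was at 311, 212, 1519 and 633 in N2ΔMy and at 113, 147, 531 and 86 in wt libraries, again with replicate 3 highest in both genotypes, and none of its 4 tested members was called. *Flt3*, the growth factor receptor of DCs, was at 251, 135, 850 and 381 against 65, 71, 325 and 35 (limma adjusted p = 0.141, 0.00242 with the block), and *Zbtb46*, a factor of conventional DCs, at 28, 53, 460 and 165 against 33, 55, 114 and 37 (limma adjusted p = 0.559; log2 fold change -0.14 in the first series, where the MHC class II median was 1.26). *Kit* was at 7, 0, 93 and 44 against 2, 1, 45 and 7. The part of these cells in the MHC class II values was not tested. With both libraries numbered 3 left out, an alternative chosen after seeing the data, 322 genes were called higher and 166 lower, and 1 MHC class II member. Among the dendritic cell genes as a whole 3 of 12 (25%, against 3.12% of all genes) were called higher, or 6 with the block (4.92% of all genes): *Irf4* and *Clec10a*, given above, and *Cd83* (72, 71, 54 and 64 against 19, 10, 21 and 42; limma adjusted p = 0.0381, up to 0.1 without 1 library other than wt replicate 4).

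**Figure D5:**
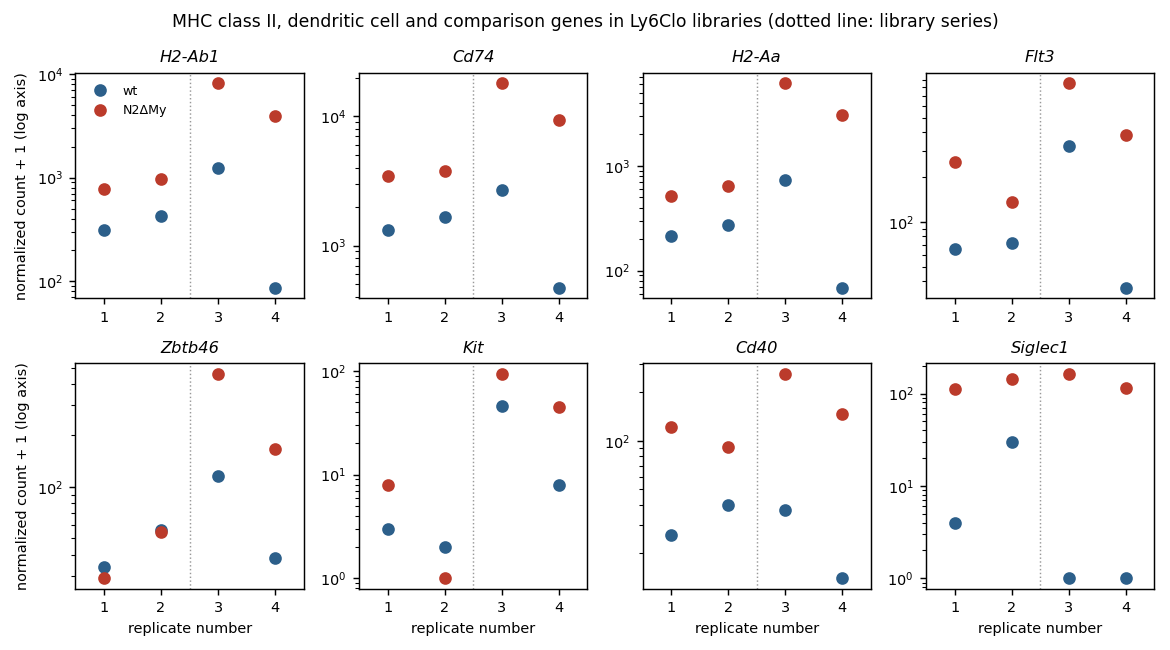
Normalized counts + 1 (log axis) of 8 genes by replicate number in wt (blue) and N2ΔMy (red) Ly6Clo libraries, with a dotted line between the library series. *H2-Ab1*, *Cd74*, *H2-Aa*, *Flt3* and *Zbtb46* are highest in replicate 3 of both genotypes, whereas *Siglec1* in N2ΔMy libraries stays between 112 and 163.

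Costimulatory and checkpoint genes, whose products act on T cells and other leukocytes, split into 6 called higher and 3 lower of 19 tested (47.4%, against 4.78% of all genes). *Cd40* was at 120, 91, 260 and 146 in N2ΔMy and 25, 39, 36 and 13 in wt libraries (limma log2 fold change 2.41 with an SE of 0.41, adjusted p = 0.006). *Cd80*, a ligand of CD28, was at 190, 229, 108 and 149 against 36, 45, 44 and 27 (limma log2 fold change 2.10 with an SE of 0.28, adjusted p = 0.00188). *Cd200r1*, an inhibitory receptor, rose from between 3 and 16 to between 41 and 79 (log2 fold change 2.76, limma adjusted p = 0.00852), and *Lgals9*, galectin 9, from between 108 and 181 to between 404 and 675 (log2 fold change 1.88, limma adjusted p = 8.8e-04). *Cd274* fell, as given above. *Cd244*, an NK cell and monocyte receptor, fell too (log2 fold change -0.98, limma adjusted p = 3.3e-04), and the call of *Cd72* (log2 fold change -0.88) was lost without any library but wt replicate 3 (adjusted p up to 0.12). *Pdcd1lg2*, the gene for PD-L2, was not called (212, 164, 101 and 142 against 271, 261, 90 and 164; limma adjusted p = 0.761). The integrin list had 1 member called higher, *Itga5*, the α chain of the fibronectin receptor (log2 fold change 0.66, limma adjusted p = 0.00347), and 2 lower, *Itgal* and *Itgb3*, of 16 tested (18.8%, against 4.78% of all genes).

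The Bcl2 family, which decides on mitochondrial apoptosis, had 2 of 15 members called higher and 1 lower (20%, against 4.78% of all genes). *Bcl2l11*, the gene for the pro-apoptotic protein BIM, was tight within groups, at 813, 803, 731 and 794 in N2ΔMy and 410, 392, 425 and 406 in wt libraries (limma log2 fold change 0.94 with an SE of 0.10, adjusted p = 3.3e-04), while *Bcl2* fell. *Pmaip1*, which encodes NOXA, rose just past the minimum (log2 fold change 0.60, limma adjusted p = 0.0102) and under it without wt replicate 1 or 4 or N2ΔMy replicate 1 (as low as 0.52). The anti-apoptotic *Bcl2l1* and *Bcl2l2* were not called (log2 fold changes -0.11 and 0.19).

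Among lysosomal genes 4 of 38 tested were called higher and 0 lower (10.5%, against 4.78% of all genes), with a median of 0.19. *Ctsc*, cathepsin C, rose from between 2314 and 3171 to between 4651 and 6860 (limma log2 fold change 1.03 with an SE of 0.14, adjusted p = 0.00194), and *Ctsd* and the sterol carrier *Npc2* by 0.71 and 0.66 on the log2 scale. Of the windows of the *Ctsd* transcript 35.8% also occur in another annotated gene. *Ctsl* was called (log2 fold change 1.26) but lost without any wt library or N2ΔMy replicate 1 or 2 (adjusted p up to 0.111), and *Ctsa* and *Ctsb* were not called (log2 fold changes 0.15 and -0.44). In iron and heme handling, 1 of 20 was higher and 1 lower (10%, against 4.78% of all genes), 4 in total without wt replicate 3 or with the block, where 8.36% of all genes were called. *Steap3*, an endosomal ferrireductase, was at 300, 189, 197 and 201 against 7, 19, 15 and 18 (limma log2 fold change 3.88 with an SE of 0.33, adjusted p = 1.6e-04), with 194 to 222 in wt Ly6Chi cells. *Hfe* fell from between 6007 and 8538 to between 3809 and 4441 (limma log2 fold change -0.82 with an SE of 0.11, adjusted p = 0.00206), and *Hmox1*, heme oxygenase 1, was not called (3317, 2385, 1449 and 1513 against 1586, 1504, 873 and 1381; limma adjusted p = 0.219, 0.00443 with the block).

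Of 24 tested cell cycle genes 0 were called with limma, against 4.78% of all genes tested, and 1 (*Ccna2*) without wt replicate 4. With the replicate block 2 (*Ccna2* and *Mki67*) were called, against 8.36% of all genes. In the main fit 5 of the 24 had an unadjusted p under 0.05, against 19.5% of all genes tested. *Mki67* was at 146, 209, 496 and 532 in N2ΔMy and 140, 69, 227 and 117 in wt libraries (limma adjusted p = 0.16, 0.0111 with the block), against 1258 to 2396 in wt Ly6Chi cells, and *Top2a* at 120, 136, 211 and 223 against 90, 126, 170 and 180 (limma adjusted p = 0.659). Of 21 glycolysis genes 1 was called, the muscle-type enolase *Eno3*, and 2 with the block. This share, 4.76%, is near the 4.78% of all genes tested. The glucose transporters *Slc2a1* and *Slc2a3* and the hexokinase *Hk1* were not called (log2 fold changes 0.21, 1.33 and 0.44), except *Slc2a3* with the block (limma adjusted p = 0.0539 without and 0.0103 with it).

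Outside the lists, *Gas7* showed one of the largest rises, at 2676, 2306, 2364 and 1957 in N2ΔMy and 50, 49, 145 and 42 in wt Ly6Clo libraries (limma log2 fold change 5.19 with an SE of 0.33, adjusted p = 1.7e-05), against 3090 to 3792 in wt Ly6Chi cells. Its product binds actin. Among the 8 called genes with the highest normalized counts, a scale not divided by transcript length, *Ahnak* was at 74896, 63766, 53794 and 56272 against 26214, 20442, 28149 and 19375 (limma log2 fold change 1.41 with an SE of 0.16, adjusted p = 7.0e-04), *Vim*, vimentin, rose by 0.81 and *Plec*, plectin, by 0.62 on the log2 scale. The call of *Plec* was lost without wt replicate 2, 3 or 4 or N2ΔMy replicate 1 or 2 (adjusted p up to 0.0879). *Syne1*, which links the nucleus to the cytoskeleton, fell instead, from between 5220 and 6410 to between 1464 and 2337 (limma log2 fold change -1.59 with an SE of 0.14, adjusted p = 1.6e-04).

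The largest falls by the rule for named genes had mean wt values of at least 100 by construction. *Vegfc*, a growth factor for lymphatic vessels, was at 74, 43, 26 and 76 in N2ΔMy and 224, 170, 97 and 264 in wt libraries (limma log2 fold change -1.80 with an SE of 0.40, adjusted p = 0.0243), a call lost without wt replicate 1, 2 or 4 or N2ΔMy replicate 2 or 3 (adjusted p up to 0.0822). *Ikzf3*, which encodes the lymphoid factor Aiolos, was at 348, 332, 665 and 897 against 1312, 1517, 1501 and 2059 (limma log2 fold change -1.62 with an SE of 0.30, adjusted p = 0.00912), and at most 79 in wt Ly6Chi cells. *Epha4*, an ephrin receptor, was at 95, 132, 77 and 123 against 335, 376, 331 and 306 (limma log2 fold change -1.68 with an SE of 0.19, adjusted p = 7.1e-04). The others are transcripts named by clone, RP23-395G18.1, RP23-370F7.3 and RP23-293K21.2, with log2 fold changes of -2.12, -1.79 and -1.63. Of these, the call of RP23-395G18.1 was lost without any 1 of 6 libraries, all but wt replicate 2 and N2ΔMy replicate 4 (adjusted p up to 0.111), and 34.4% of the windows of RP23-370F7.3 occur in copies of another gene.

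Whether the genotype difference was particular to the Ly6Clo gate was tested by the term genotype × subset in a fit of the 16 libraries under IMQ. It was called for 116 genes (1.03%), 109 (0.971%) with a more positive and 7 (0.0623%) with a more negative difference in Ly6Clo than in Ly6Chi cells, and for 271 (2.41%) with the replicate block. Without wt replicate 3 the more negative ones numbered 16, and without wt replicate 1, wt replicate 4 or N2ΔMy replicate 2 they numbered 4, 3 and 4. Between N2ΔMy and wt Ly6Chi cells under IMQ, 3 genes (0.0267%) were called, *Notch2*, *Lyz1* and *C3ar1*, and 679 (6.05%) had an unadjusted p under 0.05. After Sham treatment 2 genes (0.0178%) were called in Ly6Chi cells. Among the genes with a called interaction were *Lyz1* (2.71, limma adjusted p = 0.00408), *Gas7* (4.84, limma adjusted p = 2.9e-06), *Fn1* (2.97, limma adjusted p = 8.6e-05), *Vcan* (3.36, limma adjusted p = 2.6e-04), *Ccr2* (2.94, limma adjusted p = 6.4e-04) and *Lpl* (2.44, limma adjusted p = 3.4e-04). It was not called for *Hes1* (0.19, limma adjusted p = 0.999), *Nr4a1* (0.14, limma adjusted p = 0.999) or *Ace* (0.09, limma adjusted p = 0.999), none of which was called in Ly6Chi cells (adjusted p = 0.435, 0.518 and 0.435 with limma), or for *C3ar1* (1.17, limma adjusted p = 0.187), which was one of the genes called in Ly6Chi cells. *C1qa* (4.89, limma adjusted p = 0.0706) and *Cd5l* (4.50, limma adjusted p = 0.168) did not pass either.

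Of the 350 genes called higher, 75 (21.4%) had every N2ΔMy Ly6Clo library above every other library under IMQ, of either subset. *C1qa*, *C1qb*, *C1qc*, *C3ar1*, *Mertk*, *Cd36*, *Lpl*, *Maf*, *Ltc4s* and *Cd5l* belonged to them, whereas *Ccr2*, *Vcan*, *Fn1*, *F13a1*, *Gas7*, *Siglec1* and *Tbxas1* did not. For 169 (48.3%) of the genes called higher the wt Ly6Chi mean lay above the N2ΔMy Ly6Clo mean, and for 134 (38.3%) between both Ly6Clo means. Among the genes called lower, the wt Ly6Chi mean lay below the N2ΔMy Ly6Clo mean for 148 (79.1%) of 187. These shares are of genes called in the same Ly6Clo libraries, and the shares over all genes tested were not computed. The libraries of the genotypes were fully apart for 1436 of all genes tested (12.8%), 743 (6.62%) higher and 693 (6.17%) lower in N2ΔMy. Of the called genes 519 (4.62% of those tested) were among them, 342 of the 350 higher and 177 of the 187 lower ones. For each non-overlapping gene, the two-sided exact permutation test gives p = 0.0286, its lower limit with 4 libraries per genotype.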

How the data were processed

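RNA of sorted PB monocytes was measured in 24 libraries (6 groups of 4), made with a SMARTer stranded total RNA kit and read as single 75-base reads. Per the methods, reads were trimmed (Trim Galore 0.4.4), aligned to GRCm38.p6 (STAR 2.5.3a) and counted on GENCODE genes. The authors deposited DESeq2-normalized counts rounded to whole numbers, treated here as a score because they are not raw counts. The authors' fold change, standard error, Wald statistic and p columns were not used. Reads per library were inferred from the steps between low values.

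Libraries were grouped by their labels. Genes that reached 50 in 1 or more of the 24 libraries were tested on log2(value + 1) with limma 3.58.1 (lmFit, eBayes with trend, R 4.3.3) over the 8 Ly6Clo libraries, or the 16 IMQ libraries for the interaction. Fold changes on this scale understate the change of low genes. On simulated data, 149 of 200 genes changed by a log2 fold of 1 in the Ly6Clo comparison were recovered and 1 other was called, and 121 of 200 for the interaction. Exact permutation tests covered all 70 splits. Same-numbered libraries deviated together (r of deviations from the group means 0.496, 0.438, 0.464 and 0.424, and 0.168 and 0.204 within the series). Libraries of different number in the same series did so as well (0.322, 0.357, 0.391 and 0.157). Within a series of 2 libraries per genotype the deviations mirror each other. The correlations therefore cannot settle whether the numbers pair the samples, and the labels do not say so. The main fit has no block, as in the study's methods.

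Named genes were the 12 largest rises and 8 largest falls among called, non-overlapping genes with a higher-group mean of at least 100, up to 4 called and the first 3 members of each list, checks of the sort and model, and the 8 called genes with the highest means. *Klrd1*, *Rbpj*, *Mgl2*, *S1pr5*, *Hpgd*, *Unc93b1*, *Cd244*, *Cd72* and *Ccna2* were chosen after their values were seen. Some genes of these lists, counted with them, are not reported here by name. The members and the 24 gene and 10 marker lists were chosen with earlier results of these data known. Alternatives covered scaling, filter, pseudocount, variance model, block, covariate, samples, thresholds and each library. Windows shared between transcripts were counted over 75 bases of the GENCODE transcripts of GRCm38.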

Additional observations from a re-analysis of the deposited data

Results flagged for a closer look

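In groups of 4 libraries, a library was singled out when its gap to the nearest other, as a share of the range of its group, exceeded the 95% critical value of Dixon, which chance alone does in about 1 of 20 groups. This was so in 15 of 280 groups of the genes named in the text. In wt replicate 3 these were *F13a1* (450, highest), *Flt3* (325, highest), *Gas7* (145, highest), *Kit* (45, highest), *Klrd1* (25, highest) and *RP23-293K21.2* (489, highest). In wt replicate 4 these were *Ccl2* (11, highest), *Fcgr3* (3132, highest), *Stab1* (8, lowest) and *Thbs1* (158, highest). In N2ΔMy replicate 4 it was *Cd244* (3779, highest). In N2ΔMy replicate 3 it was *Ly6c2* (382, highest). In wt replicate 1 it was *Runx2* (2386, highest). In wt replicate 2 it was *Siglec1* (29, highest). In N2ΔMy replicate 1 it was *Steap3* (300, highest). Values are normalized counts.

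For 35 named genes the genotype difference in Ly6Clo cells differed from that in Ly6Chi cells under IMQ, by the limma interaction term and the thresholds of the report. The excess of the Ly6Clo over the Ly6Chi log2 fold change was 5.51 for *Siglec1*, 4.84 for *Gas7*, 3.66 for *C1qb*, 3.64 for *Mertk*, 3.45 for *Steap3*, 3.43 for *Clec10a*, 3.36 for *Vcan*, 3.29 for *F13a1*, 3.13 for *Mrc1*, 3.11 for *Myc*, 3.04 for *C1qc*, 3.00 for *Ptgs1*, 2.97 for *Fn1*, 2.94 for *Ccr2*, 2.76 for *Cd200r1*, 2.75 for *Tbxas1*, 2.74 for *Ccr1*, 2.71 for *Lyz1*, 2.61 for *Stab1*, 2.48 for *Cd40*, 2.44 for *Lpl*, 2.40 for *Clec5a*, 1.84 for *Cysltr1*, 1.78 for *Irf4*, 1.74 for *Msr1*, 1.70 for *Maf*, 1.68 for *Cd80*, 1.67 for *Ccl9*, 1.58 for *Lgals9*, 1.56 for *Cd33*, 1.25 for *Ahnak*, 0.81 for *Pmaip1* and 0.68 for *Bcl2l11*. It was negative, with a larger fall in Ly6Clo cells, for *Itgb3* (-1.20) and *Syne1* (-1.10).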

How the results depend on the processing

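The 537 calls became 939 (552 higher and 387 lower) with the replicate block, 830 (332 lower) with the library series as a covariate, 215 (157 and 58) without the low-value filter, 180 (132 and 48) in the second series alone, 181 (149 and 32) with the thresholds at 0.01 and a log2 fold change of 1, and 297 (217 and 80) with the steps of the study's methods. With all 24 libraries in the fit 549 were higher. Leaving out 1 library gave 358 to 560 calls, 251 to 370 higher and 102 (without wt replicate 1) to 193 lower. The 116 interactions became 210 (185 more positive, 25 more negative) with the series as covariate and 271 (241 and 30) with the block, and 88 to 173 (82 to 157 and 3 to 16) when 1 library was left out. With both libraries numbered 3 left out, chosen after seeing the data, 322 were higher and 166 lower. TMM scaling, the other pseudocounts, limma without the trend, the stricter filter and the first series alone kept these counts within 1.5 times. Of the 97 called genes named in the text none changed sign, but 50 lost the call without the low-value filter, 47 in the second series alone, 45 at the stricter thresholds, 16 without the trend, 12 (of 80 tested) with the study's steps, 9 without both libraries numbered 3, 8 with all 24 libraries (*Nrarp*, *Eno3* and *Fabp4* among them), 6 in the first series alone and 5 to 18 without 1 library. Among uncalled genes the sign turned for *Bcl2l2* (-0.04), *Fcgr2b* (0.08), *Isg15* (-0.91) and *Zbtb46* (-0.14) with the first library series only, *Ifit1* (0.01) with a pseudocount of 10, *Abcg1* (-0.19), *Ccl3* (0.59), *Ifit1* (0.10) and *Lyz2* (-0.03) with the second library series only and, with both libraries numbered 3 left out, for *Isg15* (-0.49). Over the fits that each left out 1 library, the log2 fold changes with both signs were those of *Abcg1* (-0.05 to 0.17), *Bcl2l2* (-0.09 to 0.41), *Fcgr2b* (-0.20 to 0.09), *Ifit1* (-0.34 to 0.48) and *Isg15* (-0.22 to 0.44). The cause was not tested. A count model was not run, since the values are not raw counts. The replicate block changed no call of a named gene other than those given in the report. Rounding and depth limit values under about 50, where a few reads decide a fold change.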

Other observations

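In Ly6Chi cells after Sham treatment, 2 genes (0.0178% of those tested) were called between N2ΔMy and wt mice, *Notch2* (log2 fold change -0.71, limma adjusted p = 0.0408) and *Lyz1* (2.95, limma adjusted p = 3.7e-07). *Lyz1* thus passed in each of the 3 genotype comparisons, with log2 fold changes of 5.77 in Ly6Clo cells and 3.06 in Ly6Chi cells under IMQ. *C3ar1* was at 1.43 after Sham treatment and was not called there (limma adjusted p = 0.479).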
